A study of Homo sapiens with 20 samples.

Results

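The mitochondrial tRNA for leucine that reads UUR codons, tRNA-Leu(UUR), is encoded by the gene TRNL1. On the mitochondrial chromosome (GRCh38) TRNL1 lies between the 16S rRNA gene RNR2, which ends at position 3229, and the complex I subunit gene ND1, which starts at position 3307. All 75 bases of TRNL1 were taken from profiles that list 16570 positions each, and TRNL1 is 1 of 37 mitochondrial genes, 22 of which encode tRNAs. Base 29, counted from the 5′ end of the gene, was set against the other 74 bases. It had been picked out for its height and its differences between groups in these same libraries, so its values are a description. It stayed among the positions fitted together, but its calls there are not read as tests. By the usual tRNA numbering, which runs 2 behind the gene's own count from base 28 onward, base 29 is conventional position 27, the first base of the anticodon stem. No mitochondrial sequence was used here, so which nucleotide stands at a base was not checked.

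The cells were K562, a human leukaemia line, and RNA came from isolated mitochondria. CMC, at 0.5 M in the labels, is a carbodiimide that stays attached to pseudouridine and disturbs the reverse transcriptase there. Of the 14 CMC libraries, 4 came from wild-type cells with a non-targeting sgRNA (control), 4 from cells with NME6 knocked out, 3 after RPUSD4 knockdown, and 3 from NME6 knockout cells given a wild-type NME6 cDNA (rescued cells, which still carry the knockout). A further 6 untreated samples in the labels were not analysed here on their own. Clones, guides and cultures behind a group are not named, so spread and p-values refer to these libraries, and no transcript level was at hand to check the knockout, the knockdown or the cDNA.

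Mitochondrial tRNAs are cut out of long transcripts and then modified base by base. Pseudouridine is an isomer of uridine that adds a hydrogen-bond donor and stiffens the backbone, and tRNAs carry it mainly in the anticodon arm and the T arm. PUS1 is the synthase known to make pseudouridine at conventional positions 27 and 28 of cytosolic and mitochondrial tRNAs. RPUSD4 is a mitochondrial synthase known for a site in the 16S rRNA, and NME6 belongs to the nucleoside diphosphate kinase family, whose members pass phosphate between nucleotides.

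A level here is the deposited signed difference at a position, read as CMC minus untreated in percentage points of altered reads. That reading comes from the values and was not stated with them. Without read depths no counting error can be given, and an exact 0 may mean that no reads covered the base. The tRNA was unevenly filled: 76.0% of the 1036 values at the other 74 bases were 0, and 11 bases, 7 of them in the D arm, were 0 in all 14 libraries. Control replicate 1 and NME6 knockout replicate 1 stood apart, with values other than 0 at 6.93% and 7.49% of positions in the other 21 tRNAs, against at least 13.1% in the remaining 12 libraries.

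Base 29 was the highest base of the tRNA in all 14 libraries. In control it read 15.3, 24.8, 19.7 and 19.0 points in replicates 1 to 4, a mean of 19.7 ± 3.94 points (SD, n = 4). Every control library lay far above the rest of its own tRNA, where the highest other base reached 1.17 to 3.35 points. On the 5′ side base 28 read 0, 0.499, 0.582 and 1.66 points, and on the 3′ side base 30 read at most 0.593 points. Bases 27 and 31 did not exceed 0.229 and 0.201 points in control. The control signal was thus a single-base peak. Within single libraries, base 29 was 4.73 to 17.1-fold above the highest other base in control, 1.47 to 5.58-fold in NME6 knockout, 5.02 to 11.8-fold in RPUSD4 knockdown and 2.28 to 5.92-fold in rescued cells. Taken from group means instead, the ratio was 9.70, 7.53, 7.80 and 3.88 in the same order, which is above every single library in the knockout because its libraries peak at different other bases. Of the positive signal summed over a library's 75 bases, base 29 held 60.9% ± 6.19 (SD, n = 4) in control and 15.7 to 75.8% in NME6 knockout, where replicate 3 gave the low end. Libraries of RPUSD4 knockdown held 59.8 to 76.7% there and rescued libraries 56.7 to 68.4%.

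**Figure D1:**
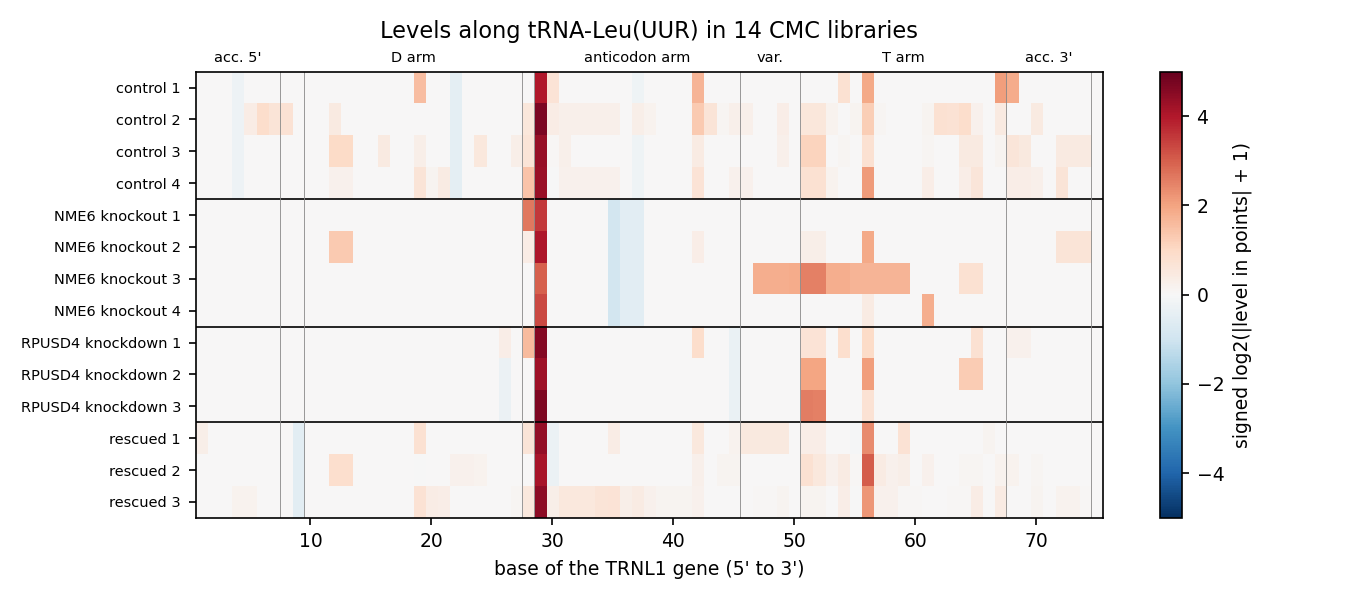
Levels along the 75 bases of the tRNA (horizontal axis, base of the gene; thin vertical lines mark the arms) in each of the 14 CMC libraries (rows), coloured by signed log2 of the absolute level in points plus 1. Base 29 is dark in every row, and NME6 knockout replicate 3 has a run of values from base 47 to base 59.

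Across groups the level of base 29 was lowest in NME6 knockout cells. The 4 knockout libraries read 10.5, 15.4, 6.93 and 8.93 points in replicates 1 to 4, a mean of 10.4 ± 3.60 points (SD, n = 4). Knockout replicate 2 reached into the control range, just above control replicate 1, and the other 3 lay below every control library. Between libraries of the same number, knockout minus control was -4.73, -9.48, -12.7 and -10.1 points in replicates 1 to 4. The knockout mean was 53.0% of the control mean, a difference of -9.25 points. Without replicate 1 of either group the difference was -10.8 points. RPUSD4 knockdown libraries read 23.4, 17.7 and 24.2 points, a mean of 21.8 ± 3.53 points (SD, n = 3). Rescued libraries read 20.1, 16.5 and 21.2 points, a mean of 19.2 ± 2.47 points (SD, n = 3). Libraries of both these groups all lay within the control range.

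Group means ran from RPUSD4 knockdown through control and rescued cells to NME6 knockout. RPUSD4 knockdown stood 2.10 points from control, and rescued cells -0.449 points, both less than the SD within any of these groups as deposited. With libraries scaled rescued cells stood 4.45 points from control, and leaving out 1 library gave -1.93 to 1.27 points, so neither the direction nor the size of that difference is settled. Without knockdown replicate 2, RPUSD4 knockdown stood 4.13 points from control. Rescued cells stood 8.81 points above NME6 knockout with no overlap, as was so for 19.5% of the 149 tested positions of the mitochondrial genome. NME6 knockout and RPUSD4 knockdown differed by -11.4 points, also with no overlap, as was so for 9.4% of tested positions. Nothing is read from those gaps, since base 29 was chosen on these values. The comparisons share libraries: control enters 3 of them and the knockout enters 3. One untreated profile seems to have been subtracted within each group, so whether the untreated or the CMC side of the difference moved was not tested.

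**Figure D2:**
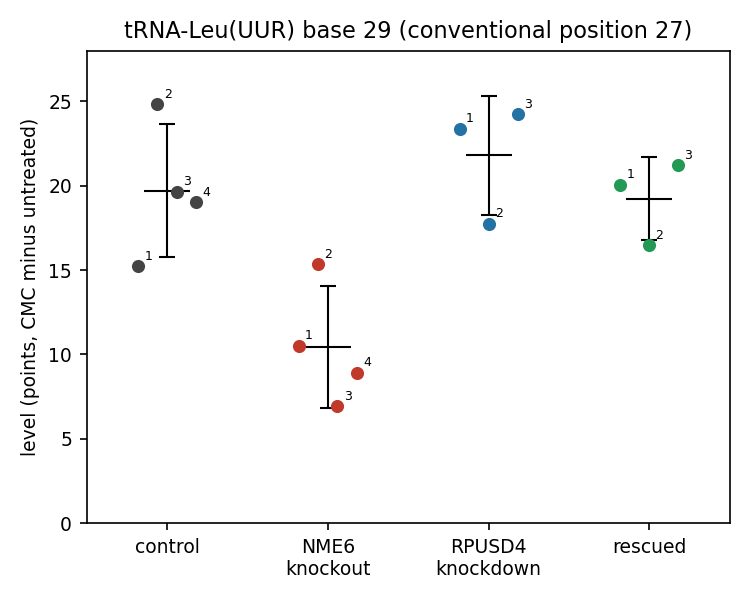
Level of base 29 in points (vertical axis) in each library, by group, with the replicate number beside each point; the bar is the group mean and the whisker its SD. Control, RPUSD4 knockdown and rescued libraries share the range from 15.3 to 24.8 points, and 3 of the 4 NME6 knockout libraries lie below it.

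How much of the tRNA had values also differed between groups. Bases with a value other than 0 numbered 11 to 36 of 75 in control, 5 to 19 in NME6 knockout, 6 to 12 in RPUSD4 knockdown and 19 to 42 in rescued libraries. RPUSD4 knockdown libraries were about as thinly filled as those of the knockout, and base 29 read 17.7 to 24.2 points in them. In the other 21 tRNAs values other than 0 stood at 7.49 to 21.1% of positions in NME6 knockout, 13.1 to 20.2% in RPUSD4 knockdown and 33.3 to 46.9% in rescued libraries. The part of this fill in the level of base 29 was not tested.

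**Figure D3:**
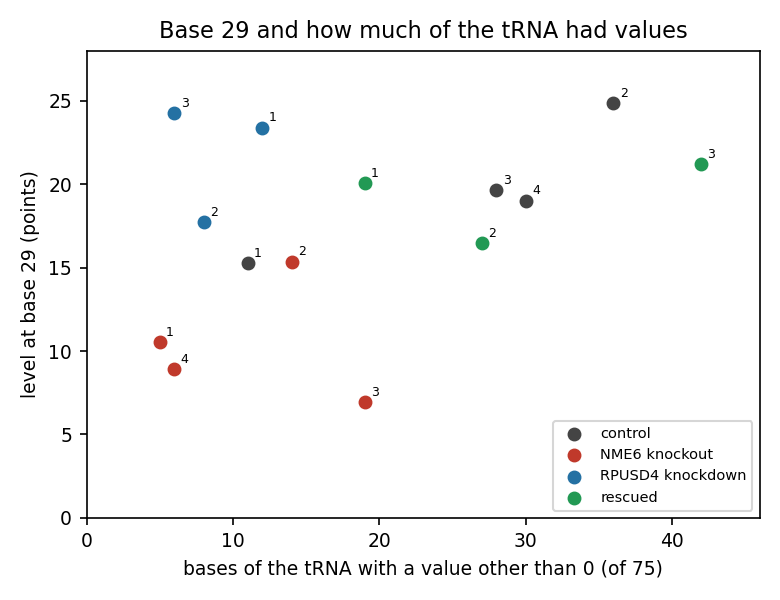
Level of base 29 in points (vertical axis) against the number of the tRNA's 75 bases with a value other than 0 (horizontal axis), 1 point per library, coloured by group and labelled by replicate. The RPUSD4 knockdown libraries have 6 to 12 filled bases and 17.7 to 24.2 points, and the NME6 knockout libraries have 5 to 19 filled bases and 6.93 to 15.4 points.

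The other bases were low, and 3 of the 74 had a mean of 1 point or more over the 14 libraries, the minimum for testing. These were bases 56, 51 and 52 in the T arm, with means of 2.37, 1.20 and 1.17 points. Just below the minimum stood base 28 with 0.806 points and base 42 with 0.468 points. Each comparison was tested with limma over 149 positions, with p-values adjusted by Benjamini-Hochberg and a threshold of 0.05. None of the 3 T arm bases passed in any of the 5 comparisons. At an unadjusted limma p under 0.05, 1 of 3 passed for rescued against NME6 knockout cells and 1 of 3 for rescued against control. In the other comparisons 0 of 3 passed. Of all 149 tested positions, 23 and 14 passed this cut in the first 2 of these comparisons. They numbered 7 for NME6 knockout against control, 13 for RPUSD4 knockdown against control and 14 for NME6 knockout against RPUSD4 knockdown. After adjustment, 0% of tested positions passed for NME6 knockout against control and 0.671% for RPUSD4 knockdown against control. The shares were 3.36% for rescued against NME6 knockout, 2.68% for rescued against control and 3.36% for NME6 knockout against RPUSD4 knockdown. Base 29 passed in the last of these, a call that is not read because the base was chosen on the same values. None of the 3 T arm bases was without overlap between either single perturbation and control, against 4.03% of tested positions for the knockout and 6.04% for the knockdown.

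Base 56, in the T loop, is conventional position 54, where tRNAs usually carry a methylated uridine. It was above 0 in 13 of 14 libraries. Control libraries read 2.72, 1.36, 0.690 and 3.35 points, NME6 knockout libraries 0, 2.75, 2.25 and 0.344 points and RPUSD4 knockdown libraries 0.942, 3.23 and 0.629 points. Rescued libraries read 4.08, 7.22 and 3.58 points, and all 3 lay above all 11 libraries of the other groups. They also lay above all others at the RPUSD4 site of the 16S rRNA. The share of tested positions separated in this way was not computed. Against NME6 knockout the difference was 3.62 points (SE 1.15, limma, Benjamini-Hochberg adjusted p = 0.0957, range over the alternatives 0.0591 to 0.992). The 2 groups had no overlap, as was so for 19.5% of tested positions. Against control it was 2.93 points (SE 1.15, limma, Benjamini-Hochberg adjusted p = 0.377), with no overlap, as was so for 15.4% of tested positions. With library weights the limma comparison with control passed (Benjamini-Hochberg adjusted p = 0.0254, range over the alternatives 0.0254 to 1). NME6 knockout differed from control at base 56 by -0.695 points and RPUSD4 knockdown by -0.432 points, and the limma test passed for neither (Benjamini-Hochberg adjusted p = 0.988 for the knockout). Both directions changed under other settings. Whether the rescued libraries were prepared with the others is not stated.

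Base 57, conventional position 55 and the usual pseudouridine of the T loop, read 2.23 points in NME6 knockout replicate 3 and at most 0.315 points in the other 13 libraries. That value belongs to a run of 13 bases, from base 47 to base 59, in which knockout replicate 3 read 2.22 to 4.72 points throughout. In the T stem, RPUSD4 knockdown libraries read 0.617, 2.93 and 4.83 points at base 51, against 0, 0.482, 1.17 and 0.712 points in control. Knockdown replicates 2 and 3 exceeded the control range there. The difference was 2.20 points at base 51 and 2.17 points at the neighbouring base 52 (SE 1.17 and 1.16, limma, Benjamini-Hochberg adjusted p = 0.499 for both). NME6 knockout libraries read 0, 0.240, 4.71 and 0 points at base 51, so their mean of 1.24 ± 2.32 points (SD, n = 4) rests on replicate 3. Rescued libraries read 0.251, 0.705 and 0.0944 points.

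**Figure D4:**
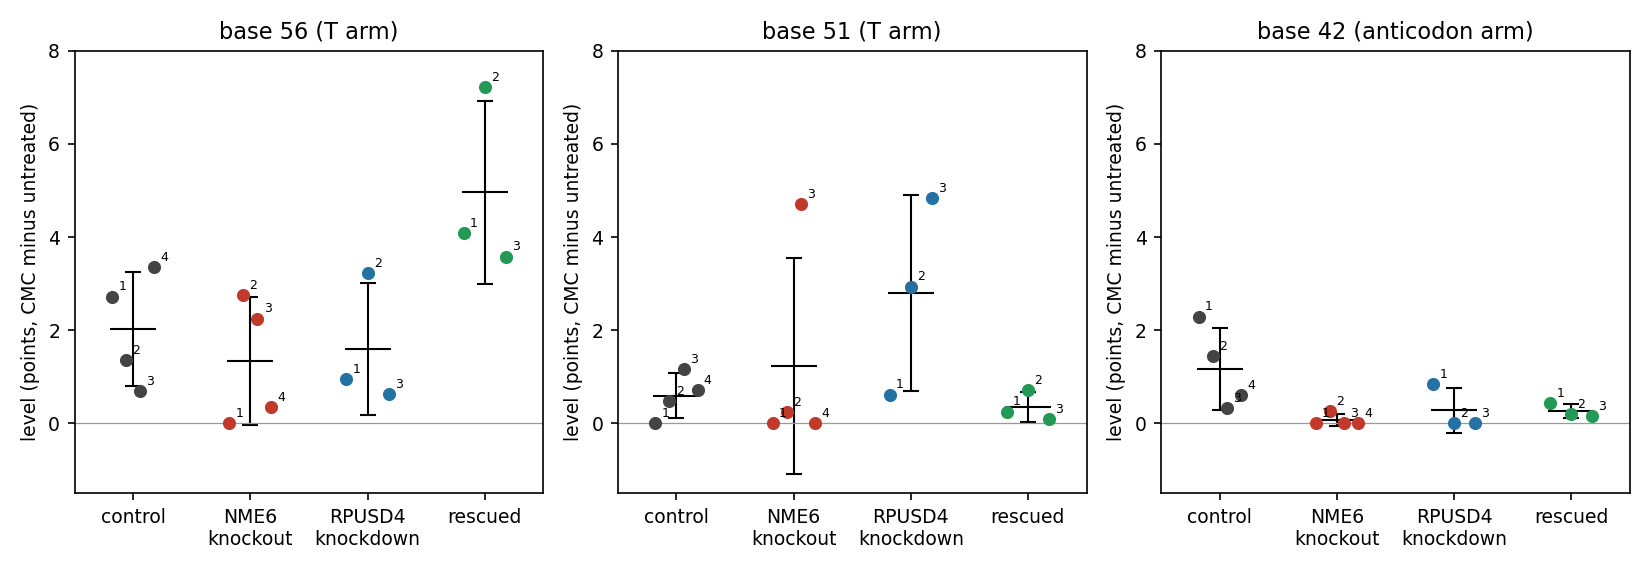
Levels in points (vertical axis) at bases 56, 51 and 42 of the tRNA in each library, by group, with the replicate number beside each point; the bar is the group mean and the whisker its SD. At base 56 the rescued libraries (3.58 to 7.22 points) lie above all others, and at base 42 no library exceeds 2.29 points.

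In the anticodon arm, base 42 was named after its values were seen. Control libraries read 2.29, 1.45, 0.329 and 0.608 points there and NME6 knockout libraries 0, 0.259, 0 and 0 points. All 4 control libraries lay above all 4 knockout libraries, at a level too low to be tested. Such a lack of overlap was found at 6 of the 74 other bases: base 42 and bases 4, 22, 35, 36 and 37. All of these but base 42 had a negative value repeated through every library of a group. The share was 4.03% among tested positions, which have higher levels and include none of these bases. No share was computed for positions as low as base 42. RPUSD4 knockdown libraries read 0.842, 0 and 0 points and rescued libraries 0.429, 0.193 and 0.157 points. Conventional position 39, base 41 of the gene, is a usual pseudouridine site of tRNAs. It read 0.106 points in rescued replicate 3 and 0 in the other 13 libraries. Whether base 41 of this tRNA is a uridine was not checked, so these values do not show an unmodified site. Base 28, between the D arm and the anticodon stem, read 5.26 points in NME6 knockout replicate 1 and at most 1.99 points elsewhere.

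The 5′ side of the tRNA was close to silent. In the 5′ acceptor strand all values of NME6 knockout and RPUSD4 knockdown were 0, and the highest control value was 0.853 points. In the D arm 2.78% of NME6 knockout values and 5.56% of RPUSD4 knockdown values differed from 0, against 23.6% in control and 20.4% in rescued cells. In the T arm the shares were 23.5%, 25.5%, 44.1% and 62.7% in the same order. The T arm was thus better filled than the D arm in all 4 groups as wholes. In NME6 knockout most of the T arm values other than 0 came from replicate 3, and replicate 1 was 0 throughout both arms.

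Negative values repeated within groups. At bases 35, 36 and 37, the base before the anticodon and its first bases, all 4 NME6 knockout libraries read -0.881, -0.441 and -0.441 points. All 4 control libraries read -0.194 points at base 4 and -0.396 points at base 22. All 3 RPUSD4 knockdown libraries read -0.250 points at base 45, and all 3 rescued libraries -0.424 points at base 9. A shared untreated value leaves such a repeat where the CMC libraries read 0. Tested with limma without the minimum level, 3 to 4 of 64 tested bases of the tRNA passed in each comparison. Of all 14928 positions tested in this way, 36 to 156 passed. At each base of the tRNA that passed, a compared group had a single value in all its libraries.

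Among the 22 mitochondrial tRNAs, tRNA-Leu(UUR) held the highest position mean in every group. In control its 19.7 points stood above 8.33 points in TRNF (tRNA-Phe), which rested on a single library at 33.3 points, and 5.48 ± 4.54 points (SD, n = 4) in TRNG (tRNA-Gly). The other 19 tRNAs had control means of 0.695 to 3.27 points at their highest positions. In NME6 knockout it was followed by 4.17 points in TRNN (tRNA-Asn), again from a single library. Base 29 was the highest of all tRNA positions in 10 of 14 libraries. It ranked 2 in control replicate 1, and 2, 4 and 3 in NME6 knockout replicates 1, 3 and 4. By share of values other than 0, TRNL1 ranked 12 of 22. These ranks describe a position chosen for its height.

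**Figure D5:**
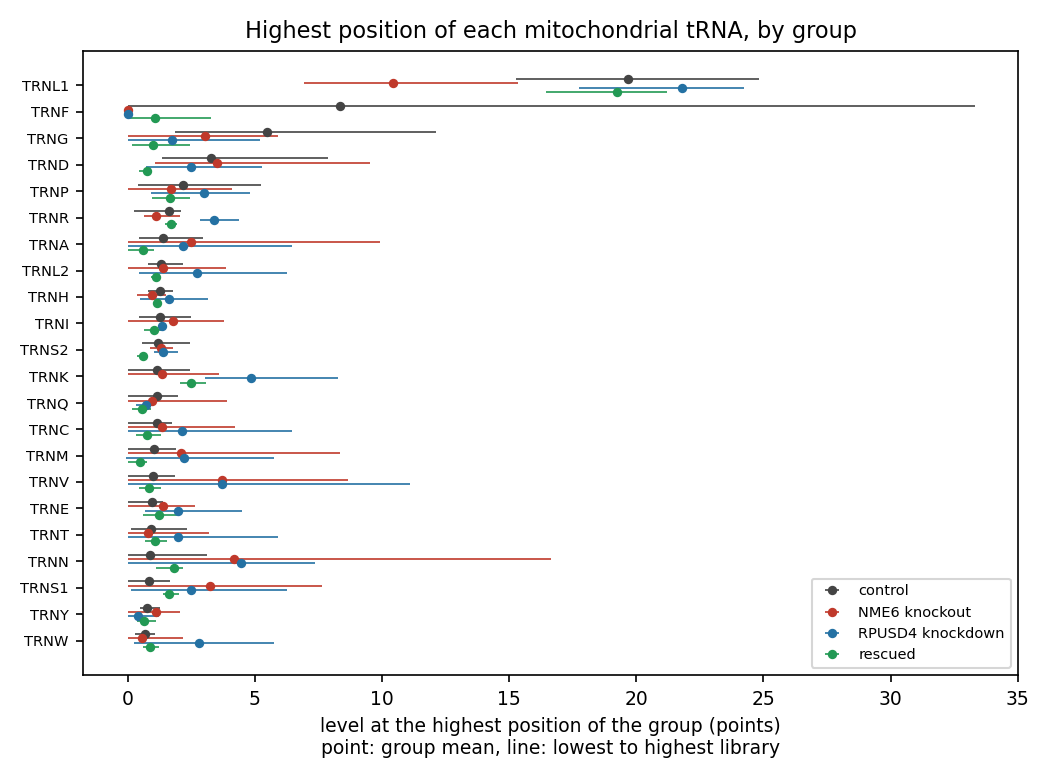
Level in points (horizontal axis) at the highest position of each of the 22 mitochondrial tRNAs (rows), chosen within each group; points are group means and lines run from the lowest to the highest library. TRNL1 has the highest mean in all 4 groups, and the long line of TRNF in control comes from a single library.

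Conventional positions 27 and 28 of the other 21 tRNAs could not be placed without a sequence, so bases 25 to 31 of each were read along its own strand. The tRNAs differ in length, with 59 bases in TRNS2 and 75 in TRNL1, so this window can miss both positions. Its values therefore do not show whether other tRNAs have a signal at positions 27 and 28. In none of the 21 did a base of this window reach a mean of 1 point over the 14 libraries. The highest was base 29 of TRNV (tRNA-Val) with 0.864 points, carried by 11.1 points in RPUSD4 knockdown replicate 3. Next came base 28 of TRND (tRNA-Asp) with 0.839 points, and 1.79 ± 1.30 points in control (SD, n = 4). Base 27 of TRNI (tRNA-Ile) was above 0 in 12 of 14 libraries, with 0.934 ± 0.525 points in control (SD, n = 4) and 0.268 ± 0.369 points in NME6 knockout (SD, n = 4). Base 29 of TRNR (tRNA-Arg) was above 0 in 13 of 14 libraries and ran the other way, with 0.180 ± 0.307 points in control (SD, n = 4) and 0.536 ± 0.303 points in NME6 knockout (SD, n = 4). Neither base was tested. All window values of TRNF were 0.

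Outside the tRNA, the 5 of 145 tested positions whose levels followed base 29 most closely over the 14 libraries had group means of at most 4.85 points. Pearson's r was 0.683 for position 8316 in TRNK (tRNA-Lys), 0.660 for position 10880 in ND4, 0.604 for position 15989 in TRNP (tRNA-Pro), and 0.603 and 0.595 for positions 10408 and 10409 in TRNR (tRNA-Arg). With group means removed, r was 0.531 for position 8316 and 0.342 to 0.416 for the others. The libraries share group and untreated profile, so these values only describe. At the RPUSD4 site of the 16S rRNA, base 1397 of RNR2, levels were 13.8 to 15.8 points in control, 13.3 to 17.5 in NME6 knockout, 9.25 to 10.2 in RPUSD4 knockdown and 22.1 to 23.3 in rescued libraries, an order unlike that of base 29.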

How the data were processed

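The members and lists were chosen with earlier results of these data known. Stranded libraries were made from RNA of isolated K562 mitochondria, per the labels' protocols. Trimmomatic, STAR, SAMtools and the builds GRCh38 and hg38 are named in the submitters' processing notes; how variants were called is not given there. Each deposited value is a signed score, called delta per the file headers, whose unit is not stated; it was used as deposited. Gene coordinates came from RefSeq. Arms of the cloverleaf and strands of tRNAs were assigned from general knowledge.

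Differences were fitted with limma 3.58.1 in R 4.3.3 (empirical Bayes with trend) on all 14 CMC libraries, over 149 positions with a mean of 1 or more, with two-sided p-values adjusted by Benjamini-Hochberg; the step was tested on simulated data. Named bases were base 29, the 2 bases on each side, the tested bases, each group's highest other base, conventional positions 39 and 55, the highest position and bases 25 to 31 of each other tRNA, the 5 positions most like base 29 and the 16S site; base 42 was added after its values were seen.

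Replicate numbers recur across groups. Deviations from group means correlated at 0.471, 0.286, 0.193 and 0.116 between same-numbered control and NME6 knockout libraries. Libraries of unlike number came close to this, with 0.246 for knockout replicate 2 and control replicate 4. Knockout replicate 4 reached 0.121 with control replicate 2, above its same-numbered 0.116. Whether the numbers pair these libraries is thus not settled, and the labels do not say. The main fit has no replicate block. The blocked fit is an alternative that, like the main fit, called no position for NME6 knockout against control. In the other comparisons same-numbered libraries correlated at -0.425 to 0.0380, and whether the numbers pair them is not settled either. Alternatives changed the minimum level, the groups in the fit, scale, weights, replicate block and libraries.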

Additional observations from a re-analysis of the deposited data

Results flagged for a closer look

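By Dixon's criterion at the 95% level, 1 library stood apart from the other 3 of its group at 4 of 18 groups and measures examined. The usual chance rate of about 1 in 20 does not hold here, since many values are 0 and a single library other than 0 always stands apart. At base 28 NME6 knockout replicate 1 read 5.26 points. At base 42 NME6 knockout replicate 2 read 0.259 points while the others read 0. At the neighbouring bases 51 and 52, which are near copies of each other, NME6 knockout replicate 3 read 4.71 and 4.72 points. At base 29 no library of control or NME6 knockout stood apart in this way. RPUSD4 knockdown and rescued cells, with 3 libraries each, were not examined.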

How the results depend on the processing

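Where 5 values are given, they follow the order NME6 knockout against control, RPUSD4 knockdown against control, rescued against NME6 knockout, rescued against control, and NME6 knockout against RPUSD4 knockdown. At base 29, leaving out 1 library moved the differences over -10.9 to -7.54, 0.624 to 4.13, 7.64 to 10.4, -1.93 to 1.27 and -13.4 to -10.1 points, so rescued against control changed sign. Averaged over bases 28 to 30 the differences were -2.93, 0.616, 2.56, -0.368 and -3.54 points. With libraries scaled they were -8.61, 1.98, 13.1, 4.45 and -10.6 points. The main fit tested 149 positions, and 14928 were tested with no minimum level. By the median 93 were tested, and at a mean of 5 or more 4. Of these, 4, 64, 2 and 1 were bases of tRNA-Leu(UUR), in the order just given. Without replicate 1 of control and NME6 knockout 175 were tested, and with 1 library left out 140 to 161. Counts from settings with unlike numbers tested cannot be compared directly. Main counts of positions past the limma threshold were 0, 1, 5, 4 and 5. They were 72, 36, 156, 103 and 76 with no minimum level, 2, 2, 3, 1 and 4 at a mean of 5 or more with no trend in the fit, 0, 0, 5, 5 and 9 with the minimum set on the median, 0, 1, 11, 8 and 7 on a signed log2 scale, 0, 0, 2, 3 and 0 with scaled libraries, 2, 6, 28, 29 and 8 with library weights, 0, 0, 5, 4 and 0 with only the 2 groups, 0, 4, 21, 12 and 9 without replicate 1 of control and NME6 knockout, and 0, 0, 6, 3 and 4 with the replicate number as a block. Leaving out 1 library gave 0 to 0, 0 to 3, 2 to 8, 2 to 6 and 0 to 5. Of the bases of tRNA-Leu(UUR), base 29 included, 0, 0, 0, 0 and 1 passed, 4, 3, 4, 3 and 3 with no minimum, 1, 0, 1, 0 and 1 at a mean of 5 with no trend, 0, 0, 1, 0 and 1 by the median, 0, 0, 1, 0 and 1 on the log2 scale, 0, 0, 0, 0 and 0 scaled, 0, 0, 0, 1 and 0 with weights, 0, 0, 0, 0 and 0 with 2 groups, 0, 0, 0, 0 and 0 with the block, and 0 to 0, 0 to 0, 0 to 1, 0 to 0 and 0 to 1 with 1 library left out. Apart from the calls with no minimum and that of base 56 with weights, every such call in the tRNA was of base 29. None of those is read, since base 29 was chosen on these values. At base 56 the knockout difference from control turned to 0.394 points with weights. RPUSD4 knockdown against control ran from -1.25 to 0.0526 points with 1 library left out, above 0 without control replicate 4 or knockdown replicate 3. NME6 knockout against RPUSD4 knockdown turned to 0.750 points with weights, 0.183 without both replicates 1, and ran from -0.747 to 0.551 with 1 library left out, above 0 without knockout replicate 1 or 4 or knockdown replicate 2. With no minimum every base of the tRNA that passed had a value repeated through a group; otherwise the cause was not tested. Unknown depth limits every value of 0.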

Other observations

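The borders of the tRNA held almost no values. The last 4 positions of RNR2 were 0 in all 14 libraries, as was the last base of the tRNA. The first base of the tRNA had a value in 1 library, 0.242 points in rescued replicate 1. Of the 2 positions between the tRNA and ND1, the first was 0 in all libraries and the second read 0.0510 points in rescued replicate 2.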
